A study of Homo sapiens with 12 samples.

Results

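The endoplasmic reticulum (ER) folding and quality-control machinery of myeloma cells was followed with 33 genes in 5 roles, namely stress sensors and transcription factors, chaperones with their co-chaperones, disulfide isomerases, ER-associated degradation, and translocation with vesicle export. The members were all listed genes and every probe set annotated to them, without use of their values. Of the 33 genes, 32 had a probe set of their own and all 32 passed the filter on low values, so that 32 of the 15052 genes tested belonged to this machinery. They were read by 84 of the 54675 probe sets, of which 80 were tested. SYVN1, the ubiquitin ligase of ER-associated degradation also called HRD1, was the remaining gene, and its only probe set is annotated to a microRNA gene as well, so it has no value here.

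The cells came from 3 human myeloma lines, MM.1S, MM.1R and INA-6, all carrying green fluorescent protein (GFP), and were read on 12 U133 Plus 2.0 arrays of Affymetrix. MM.1S and MM.1R derive from the same parental line and differ in their sensitivity to dexamethasone, and INA-6 grows in dependence on interleukin 6. Every line was kept for 24 h either alone or with HS-5, an unlabelled human bone marrow stromal line, after which the GFP-positive cells were sorted and their total RNA was hybridised. The 6 groups (MM.1S alone, MM.1S coculture, MM.1R alone, MM.1R coculture, INA-6 alone and INA-6 coculture) had 2 arrays each. The series text calls these arrays technical replicates, so p-values within a line measure only the spread between duplicate arrays and not between cultures. Each line is a single line, and HS-5 is a single stromal line.

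Proteins that are to be secreted enter the ER through the SEC61 channel, fold there with the help of chaperones and disulfide isomerases, and leave in COPII-coated vesicles. Chains that do not fold are moved back to the cytosol and degraded, and an excess of them is sensed by IRE1 (gene ERN1), PERK (EIF2AK3) and ATF6, which raise the transcription of chaperone and degradation genes in the unfolded protein response. Plasma cells, from which myeloma arises, secrete antibody in large amounts and are known for a large ER and a high level of this machinery.

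The promoters of many of these genes hold the ER stress response element (ERSE), a CCAAT box and a CCACG box 9 bases apart, or its variant ERSE-II. The windows from 250 bases before to 50 bases after the gene start were taken from RefSeq on GRCh38.p14 for 29 of the 33 genes, excluding PDIA3, DERL1, DERL3 and SEC24D. Both strands were searched for ERSE as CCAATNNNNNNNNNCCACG, for ERSE-II as ATTGGNCCACG and for the core motif of the factor XBP1 as ACGTGG, which overlaps the CCACG box. ERSE was found in 6 of the 29 genes (20.7%) and in 25 of 27305 genes with a window (0.0916%). ERSE-II was found in 3 of the 29 (10.3%) and in 19 of all genes with a window (0.0696%), and ACGTGG in 9 (31%) against 11.6% of all. These are matches of letters, not tests of binding.

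The ERSE sites, shown because they are the sequence these chaperone genes share, lay at 66 bases before the start for HSPA5, at 194 and 89 for HSP90B1, at 225 for CALR, at 151 for CANX, at 80 for CRELD2 and at 86 for PDIA6. Capitals mark the CCAAT and CCACG boxes or their complements, ATTGG and CGTGG, and every site is written 5′ to 3′ on the strand of its gene.
HSPA5: CCAATcggcggcctCCACG
HSP90B1, upstream site: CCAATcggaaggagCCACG
HSP90B1, downstream site: CGTGGtgcggcgcgATTGG
CALR: CGTGGtcgaccatcATTGG
CANX: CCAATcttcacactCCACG
CRELD2: CGTGGcgaactcggATTGG
PDIA6: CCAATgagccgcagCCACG
ERSE-II at HYOU1, with 2 sites of the same letters: CGTGGtCCAAT
ERSE-II at SDF2L1: CGTGGaCCAAT
ERSE-II at HERPUD1: ATTGGgCCACG
The spacers between the boxes differ from gene to gene while the boxes and their distance are fixed by the search.

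The whole windows of HSPA5, HSP90B1 and HERPUD1 are shown because these genes moved in 3 different ways after coculture, as given with their values. HSPA5 lies on chromosome 9 (chr9:125241294-125241593, minus strand), HSP90B1 on chromosome 12 (chr12:103930160-103930459, plus strand) and HERPUD1 on chromosome 16 (chr16:56931892-56932191, plus strand), all on GRCh38.p14, with capitals for the boxes of the ERSE or ERSE-II.
HSPA5: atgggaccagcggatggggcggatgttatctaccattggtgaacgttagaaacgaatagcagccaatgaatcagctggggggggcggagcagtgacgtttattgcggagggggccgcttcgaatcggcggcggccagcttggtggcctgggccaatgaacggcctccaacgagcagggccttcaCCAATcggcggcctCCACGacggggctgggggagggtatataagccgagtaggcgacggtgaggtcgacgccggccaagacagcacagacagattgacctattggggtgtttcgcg
HSP90B1: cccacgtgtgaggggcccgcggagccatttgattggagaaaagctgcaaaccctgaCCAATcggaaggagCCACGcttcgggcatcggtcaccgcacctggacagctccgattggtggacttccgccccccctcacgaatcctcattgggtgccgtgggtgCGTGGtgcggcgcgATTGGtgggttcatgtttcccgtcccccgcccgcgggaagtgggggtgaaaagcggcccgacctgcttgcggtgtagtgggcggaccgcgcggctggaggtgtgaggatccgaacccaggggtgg
HERPUD1: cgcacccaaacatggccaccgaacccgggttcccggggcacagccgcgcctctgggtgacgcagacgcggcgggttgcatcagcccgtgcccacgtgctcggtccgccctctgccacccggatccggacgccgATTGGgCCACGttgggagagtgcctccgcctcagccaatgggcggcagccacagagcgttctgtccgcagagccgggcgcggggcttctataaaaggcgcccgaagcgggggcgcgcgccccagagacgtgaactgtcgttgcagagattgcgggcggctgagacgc
By exact match to the letters searched, HSPA5 holds an ERSE in its window and HSP90B1 holds 2 in opposite orientations. HERPUD1 holds an ERSE-II and no ERSE by the same match. Sites that depart from these letters were not searched for, so further ERSE-like sites in these windows are not excluded.

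Values are intensities as deposited, on a linear scale. The median of an array lay between 19.78 and 24.09, and duplicates correlated over all genes with r between 0.946 and 0.986, except INA-6 alone at 0.839, whose duplicates also differed most in the 32 genes (median absolute gap of 0.24 on the log2 scale, against 0.049 to 0.089 in the other groups). The ACTB control probe sets give a 3′ to 5′ ratio that is higher in degraded RNA, and it was 22.4 ± 0.456 in MM.1S alone and 5.10 ± 0.191 after coculture, 31.4 ± 1.16 and 5.21 ± 0.285 in MM.1R, and 5.51 ± 0.291 and 32.0 ± 0.531 in INA-6 (SD, n = 2). All 9 plasma cell markers were above the array median on all 12 arrays, with sums of 13412 to 13484 alone and 24504 to 25139 after coculture in MM.1S, 19640 to 20323 and 24565 to 25073 in MM.1R, and 22637 to 22742 and 15095 to 15186 in INA-6. Of 17 stromal markers measured, 7 were above the median on every alone array and 15 on every coculture array, and COL6A2, LOX, TGFBI and PDGFRB were below it on every alone array. The stromal sum was 1306 to 3043 alone and 10270 to 22100 after coculture. The ratio, the plasma cell sum and the stromal sum are shown for each array because they move with the groups compared, and their part in the results was not tested.

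**Figure D1:**
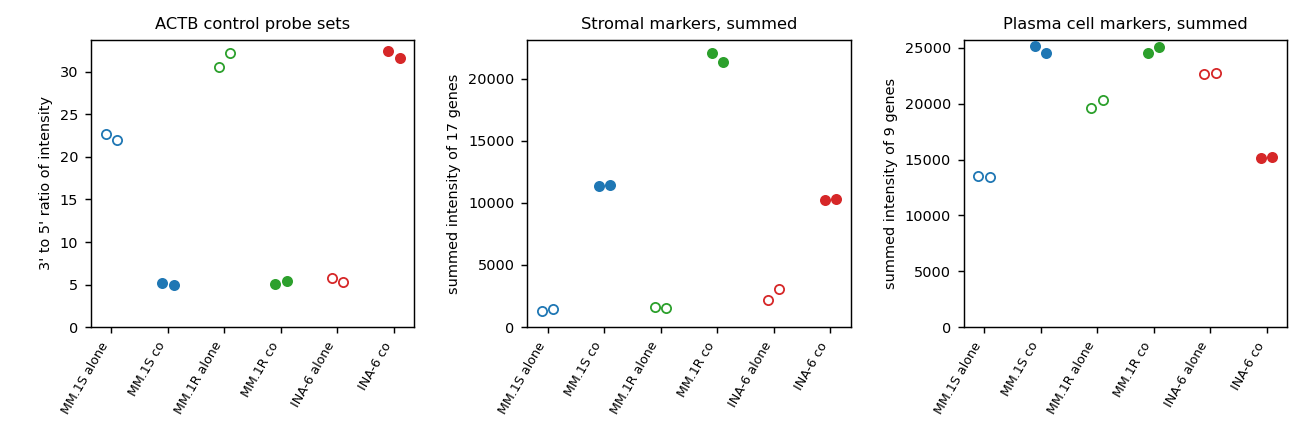
Ratio of 3′ to 5′ intensity of the ACTB control probe sets, summed intensity of 17 stromal markers and summed intensity of 9 plasma cell markers (linear vertical axes from 0) on each of the 12 arrays; open points are cells alone, filled points cells after coculture. The ACTB ratio was lower after coculture in MM.1S and MM.1R and higher after coculture in INA-6 (5.51 alone, 32.0 after coculture), while the stromal sum was higher after coculture in all 3 lines.

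The first comparison asked which genes changed after coculture in the 3 lines alike. None of the 32 ER genes passed that test. The average change over the lines ran from -1.05 ± 0.37 for HSP90B1, the ER member of the HSP90 family, to 1.26 ± 0.46 for EDEM1, a lectin that delivers misfolded glycoproteins to degradation (log2 of intensity + 5, SE of limma over the 3 lines). Of the 32 genes, 25 had an average above 0, with a median of 0.26 against 0.27 for all genes tested. With an adjusted p under 0.05 (limma, Benjamini-Hochberg over 15052 genes), 3.28% of all genes were higher and 0.106% lower, and 0 of the ER genes passed either way. At an unadjusted p under 0.05, 4 of the 32 passed, HSP90B1 lower and EDEM1, HERPUD1 and ERN1 higher, and 3381 of all genes. Without INA-6, the same fit called 9 of the 32 higher (DNAJB11, EDEM1, HERPUD1, HSPA5, MANF, P4HB, PDIA3, SEC61B and SEL1L) and HSP90B1 lower. That fit called 2818 of the 15052 genes higher and 842 lower. The 12 arrays fitted without averaging called 4 of the 32 higher (EDEM1, ERN1, HERPUD1 and SEC61B) and HSP90B1 lower. There 4005 of all genes were higher, a larger share than among the 32, and 1079 were lower.

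Within the lines the machinery moved apart. In MM.1S, 18 of the 32 genes were higher after coculture and 1 was lower, where 23.9% of all genes were higher and 8.33% lower. In MM.1R, 11 were higher and 1 lower, where 13.3% of all were higher and 2.76% lower. In INA-6, 6 were higher and 18 lower, where 39.1% of all were higher and 13.1% lower. The median change of the 32 was 0.76 in MM.1S, 0.29 in MM.1R and -0.53 in INA-6, against 0.11, 0.09 and 0.47 for all genes. In these bulk samples fewer cells of a type and less RNA per cell cannot be told apart.

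Read by sign alone, 18 of the 32 genes (56.2%) were above 0 in both MM.1 lines and below 0 in INA-6, which held for 1506 of all genes tested (10%). These 18 were thus lower, in each of the 3 lines, in the condition with the higher ACTB 3′ to 5′ ratio, and this ratio and the culture condition cannot be told apart within a line. Another 6 genes were above 0 in all 3 lines, ERN1, EIF2AK3, CREB3L2, HERPUD1, EDEM1 and SEC23B, and HSP90B1 and CRELD2 were below 0 in all 3. Relative to the INA-6 median of all genes, HERPUD1 and EDEM1 stood at -0.36 and -0.26, and ERN1, EIF2AK3, CREB3L2 and SEC23B stood above it. The part of the ratio in the changes of these 8 genes was not tested. The 2 arrays after coculture were both above the 2 arrays alone for 26 genes in MM.1S, 23 in MM.1R and 7 in INA-6, where this held for 43.7%, 41.4% and 49.1% of all genes. Both were below for 4, 5 and 22, where this held for 30.3%, 24.2% and 23.1% of all.

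Settings and single arrays bore on these counts. Under quantile normalization MM.1S had 16 genes higher and 3 lower. Without any one of the 4 MM.1R arrays, 7 genes were higher in MM.1R, and without either INA-6 alone array 2 genes were lower in MM.1S and 2 in MM.1R. A call was counted as kept when it was made again with the same sign under every alternative that measured the gene. These were 10 of the 19 calls in MM.1S, 5 of the 12 in MM.1R and 15 of the 24 in INA-6. HSP90B1, HERPUD1, SEL1L, SDF2L1 and SEC61A1 have no tested probe set lacking the _s_at, _x_at or _a_at suffix. The alternative limited to such probe sets therefore did not measure them. The median of all genes moved under quantile normalization to -0.06 in MM.1S, -0.07 in MM.1R and 0.16 in INA-6.

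**Figure D2:**
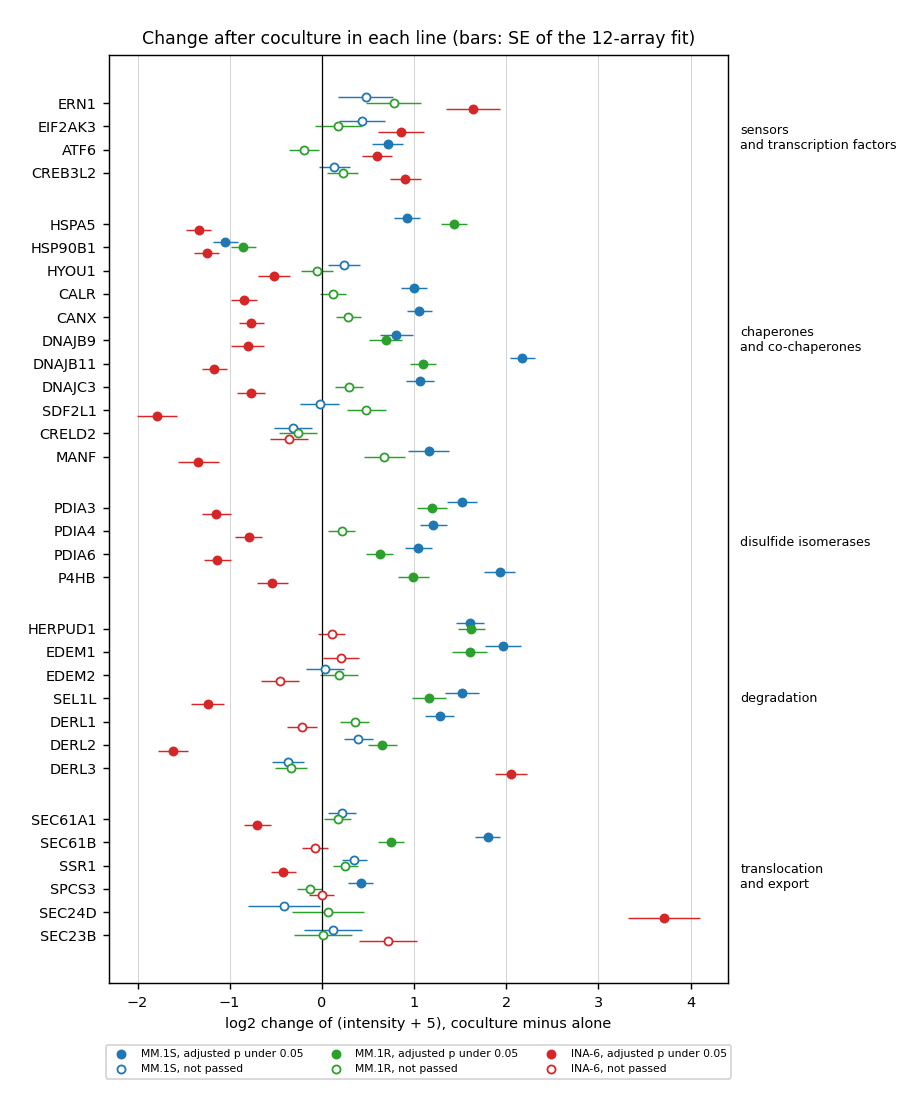
Change after coculture of each of the 32 ER genes (rows, grouped by role) on the log2 scale of intensity + 5, with SE bars; blue is MM.1S, green MM.1R and red INA-6, and filled points have a limma adjusted p under 0.05. The chaperones and isomerases lie right of 0 in MM.1S apart from HSP90B1, CRELD2 and SDF2L1, and left of 0 in INA-6, while SEC24D stands at 3.71 in INA-6.

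Among the sensors, all 4 were higher after coculture in INA-6 (39.1% of all genes were), 1 of 4 in MM.1S (23.9% of all) and 0 of 4 in MM.1R (13.3% of all), so that the MM.1S share was near that of all genes. ERN1 encodes IRE1, the kinase and RNase that splices XBP1 mRNA. ERN1 read 1247 and 1293 in MM.1S alone and 1773 and 1757 after coculture, 1107 and 1105 and then 1919 and 1887 in MM.1R, and 567 and 271 and then 1259 and 1204 in INA-6. The coculture arrays were the higher ones in each line without overlap, and the INA-6 alone duplicates lay far apart. Its change was 1.64 ± 0.30 in INA-6 (adjusted p = 0.00230), and 0.47 ± 0.30 in MM.1S and 0.78 ± 0.30 in MM.1R did not pass (adjusted p = 0.273 and 0.128). The other 2 tested ERN1 probe sets changed by -1.44 and 4.32 in INA-6, so they do not give 1 direction.

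EIF2AK3 encodes PERK, the kinase that slows translation under ER stress. It read 643 and 683 in MM.1S alone and 921 and 876 after coculture, 882 and 875 and then 1019.7 and 973 in MM.1R, and 756 and 422 and then 971 and 1087 in INA-6. Coculture arrays were again above the alone arrays in all 3 lines. The change of 0.86 ± 0.25 in INA-6 passed (adjusted p = 0.0218), and those of 0.44 ± 0.25 in MM.1S and 0.18 ± 0.25 in MM.1R did not.

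ATF6 encodes a membrane-bound transcription factor that is cut free in the Golgi under stress. It read 298 and 334 in MM.1S alone and 516 and 526 after coculture, 562 and 559 and then 489.8 and 486 in MM.1R, and 160.4 and 202 and then 289.7 and 263 in INA-6. For this probe set the coculture arrays were lower in MM.1R and higher in the other lines. The change was 0.71 ± 0.16 in MM.1S (adjusted p = 0.0115), -0.20 ± 0.16 in MM.1R (adjusted p = 0.538) and 0.60 ± 0.16 in INA-6 (adjusted p = 0.0155), and under quantile normalization the INA-6 value turned to -0.21. Its other 3 tested probe sets were at -0.53, 1.54 and -0.77 in MM.1S and at -0.55, 0.74 and -0.53 in MM.1R, so they give no single direction there, while in INA-6 they were at 2.48, 2.70 and 0.99.

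CREB3L2, a related membrane-bound factor that controls secretory capacity, read 1647 and 1240.4 in INA-6 alone and 2699 and 2663 after coculture. In MM.1S it read 1185 and 1269 alone and 1383 and 1309.7 after coculture, and in MM.1R 1388 and 1404 and then 1666 and 1599.8. The INA-6 coculture arrays stood above all the others. It changed by 0.91 ± 0.17 in INA-6 (adjusted p = 0.00278), but its other 2 probe sets changed by -1.12 and -0.58 there. In MM.1S and MM.1R its changes of 0.13 ± 0.17 and 0.23 ± 0.17 did not pass.

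Among the 11 chaperones and co-chaperones, 7 were higher in MM.1S (63.6% against 23.9% of all genes) and 1 lower (9.09%, near the 8.33% of all). In MM.1R, 3 were higher (27.3% against 13.3%) and 1 lower (9.09% against 2.76%). In INA-6, 10 were lower (90.9% against 13.1%) and none was higher (39.1% of all genes were). HSPA5 encodes BiP, the main HSP70 of the ER and the protein that keeps the sensors inactive. HSPA5 read 1081 and 1195 in MM.1S alone and 2094 and 2239 after coculture, 1058 and 1065 and then 2906 and 2853 in MM.1R, and 7984 and 8454 and then 3315 and 3181 in INA-6. INA-6 alone was the highest group, and after coculture the 3 lines came closer together. The change was 0.93 ± 0.14 in MM.1S (adjusted p = 0.00155), 1.44 ± 0.14 in MM.1R (adjusted p = 0.000380) and -1.34 ± 0.14 in INA-6 (adjusted p = 0.000148). Its second probe set had the same sign in each line, at 0.03, 0.70 and -0.75.

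HSP90B1, which encodes GRP94, fell in each line. It read 3481 and 3497 in MM.1S alone and 1646 and 1730.4 after coculture, 3350.2 and 3238 and then 1876 and 1769 in MM.1R, and 8101 and 7897 and then 3312 and 3408 in INA-6. Alone and coculture arrays did not overlap in any line. The changes were -1.05 ± 0.14 (adjusted p = 0.000700), -0.85 ± 0.14 (adjusted p = 0.00415) and -1.25 ± 0.14 (adjusted p = 0.000169) in MM.1S, MM.1R and INA-6. A second probe set of its own gave -0.89, -0.72 and -1.52, and 2 further ones shared with a microRNA gene were not used. HSPA5 and HSP90B1, both with an ERSE before their start, thus moved in opposite directions in MM.1S and in MM.1R.

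DNAJB11, a J-domain co-chaperone that hands unfolded chains to BiP, had the largest rise of the role in MM.1S. It read 296 and 315 in MM.1S alone and 1418 and 1374 after coculture, 612 and 650 and then 1365 and 1345 in MM.1R, and 3392 and 3187 and then 1446 and 1478 in INA-6. The coculture arrays of the 3 lines lay between 1345 and 1478, whereas the alone arrays ran from 296 to 3392. Its changes were 2.18 ± 0.14 in MM.1S (adjusted p = 3.35e-05), 1.10 ± 0.14 in MM.1R (adjusted p = 0.00130) and -1.17 ± 0.14 in INA-6 (adjusted p = 0.000265).

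SDF2L1, a partner of DNAJB11, had the largest fall of the role in INA-6. It read 1393 and 1649 in INA-6 alone and 464 and 408 after coculture, a change of -1.79 ± 0.21 (adjusted p = 0.000283). In MM.1S it read 287 and 416 alone and 337 and 342 after coculture, and in MM.1R 259 and 224 and then 362 and 317. The MM.1S groups overlapped, and neither -0.02 ± 0.21 in MM.1S nor 0.48 ± 0.21 in MM.1R passed.

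MANF, a stress-induced factor retained in and secreted from the ER, changed by 1.16 ± 0.22 in MM.1S and -1.34 ± 0.22 in INA-6, and its 0.68 ± 0.22 in MM.1R did not pass (adjusted p = 0.0813). The lectin chaperones CALR and CANX, which hold glycoproteins during folding, rose in MM.1S by 1.001 and 1.06 and fell in INA-6 by 0.84 and 0.76. In MM.1R neither passed, at 0.12 ± 0.14 and 0.29 ± 0.14. CANX had probe sets of both signs in MM.1S, from -0.89 to 1.72, whereas the CALR probe sets had 1 sign in each line.

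The J-domain co-chaperones DNAJB9 and DNAJC3 rose in MM.1S by 0.81 and 1.06 and fell in INA-6 by 0.80 and 0.77. In MM.1R, DNAJB9 rose by 0.69 ± 0.18 (adjusted p = 0.0359) and DNAJC3 stood at 0.29 ± 0.15. The other DNAJC3 probe sets were below 0 in MM.1S and of both signs in INA-6, and the mean over its probe sets was -0.35 in MM.1S and 0.36 in INA-6. HYOU1, the exchange factor GRP170, fell in INA-6 by 0.52 (adjusted p = 0.0384) and did not pass in the MM.1 lines, at 0.24 ± 0.18 and -0.05 ± 0.18. CRELD2, a stress-induced ER protein, passed in none of the lines, with -0.31 ± 0.21, -0.26 ± 0.21 and -0.35 ± 0.21 in MM.1S, MM.1R and INA-6.

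By the probe sets used, the disulfide isomerases shared a direction within each line. In MM.1S 4 of 4 were higher (23.9% of all genes were), in MM.1R 3 of 4 were higher (13.3% of all), and in INA-6 4 of 4 were lower (13.1% of all). P4HB, the classical protein disulfide isomerase, read 767 and 796 in MM.1S alone and 3077 and 2904 after coculture, 1799.7 and 1671 and then 3500 and 3416 in MM.1R, and 3947 and 5152 and then 3092 and 3120.1 in INA-6. The groups of no line overlapped, and the coculture arrays of the 3 lines were near each other. P4HB changed by 1.93 ± 0.17 in MM.1S (adjusted p = 0.000109), 0.99 ± 0.17 in MM.1R (adjusted p = 0.00542) and -0.54 ± 0.17 in INA-6 (adjusted p = 0.0269).

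PDIA3, also called ERp57, joins CALR and CANX in folding glycoproteins. It read 424 and 449.8 in MM.1S alone and 1270.2 and 1252 after coculture, 768 and 765 and then 1772 and 1743 in MM.1R, and 2667 and 2095 and then 1106 and 1028 in INA-6. Coculture arrays were higher in the MM.1 lines and lower in INA-6. The change was 1.52 ± 0.16 in MM.1S (adjusted p = 0.000265), 1.19 ± 0.16 in MM.1R (adjusted p = 0.00189) and -1.14 ± 0.16 in INA-6 (adjusted p = 0.000651).

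PDIA6 and PDIA4, further isomerases of the thioredoxin fold, rose in MM.1S by 1.05 ± 0.15 and 1.21 ± 0.15 and fell in INA-6 by 1.13 and 0.79. In MM.1R, PDIA6 rose by 0.63 ± 0.15 (adjusted p = 0.0227) and PDIA4 did not pass at 0.22 ± 0.15. All probe sets of PDIA6 and of P4HB had the same sign within each line, while PDIA3 had further probe sets near 0 in MM.1S, at -0.20 and -0.09. The other PDIA4 probe set was at 0.13 in MM.1S and -0.12 in MM.1R, with overlapping groups, and at -0.73 in INA-6.

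Among the 7 degradation genes measured, 4 were higher in each MM.1 line (57.1%) with none lower. Of all genes, 23.9% were higher in MM.1S and 13.3% in MM.1R. In INA-6, 1 was higher (14.3% against 39.1% of all) and 2 were lower (28.6% against 13.1%). HERPUD1, a stress-induced scaffold of the HRD1 ligase complex, read 1413 and 1459 in MM.1S alone and 4377 and 4401 after coculture, 1669.5 and 1590.3 and then 5259.6 and 4794 in MM.1R, and 1654 and 1435 and then 1715 and 1607 in INA-6. The coculture arrays of both MM.1 lines were well above all the others, and in INA-6 the groups overlapped. It changed by 1.61 ± 0.15 in MM.1S (adjusted p = 0.000144) and 1.62 ± 0.15 in MM.1R (adjusted p = 0.000269), and its 0.11 ± 0.15 in INA-6 did not pass (adjusted p = 0.573).

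EDEM1, a lectin that marks misfolded glycoproteins for removal, read 482 and 522 in MM.1S alone and 1990.1 and 1958 after coculture, 645 and 616 and then 1959.9 and 1890.3 in MM.1R, and 1548 and 1069 and then 1522 and 1454 in INA-6. As for HERPUD1, the groups overlapped in INA-6 and not in the MM.1 lines. It changed by 1.97 ± 0.19 in MM.1S (adjusted p = 0.000177), 1.60 ± 0.19 in MM.1R (adjusted p = 0.00102) and 0.21 ± 0.19 in INA-6 (adjusted p = 0.390).

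SEL1L, the adaptor of the HRD1 ligase, read 428 and 496 in MM.1S alone and 1344 and 1317 after coculture, 640.4 and 684 and then 1441 and 1541 in MM.1R, and 2969 and 2198 and then 1069 and 1089 in INA-6. Coculture arrays were higher in the MM.1 lines and lower in INA-6, without overlap. The changes were 1.52 ± 0.18 (adjusted p = 0.000480), 1.16 ± 0.18 (adjusted p = 0.00384) and -1.24 ± 0.18 (adjusted p = 0.000799) in MM.1S, MM.1R and INA-6. In INA-6 its further probe sets had both signs, from -3.11 to 0.44.

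The derlins, membrane proteins through which chains leave the ER, differed among themselves. DERL3 read 218 and 296 in INA-6 alone and 1130.3 and 1014 after coculture, 600 and 578 and then 453 and 456 in MM.1S, and 532 and 549 and then 425 and 431 in MM.1R. It was the degradation gene that rose in INA-6, by 2.05 ± 0.18 (adjusted p = 5.50e-05), with INA-6 coculture above all other groups. In MM.1S and MM.1R its -0.37 ± 0.18 and -0.33 ± 0.18 did not pass. One of its other probe sets had the opposite sign in INA-6, at -1.37. The other was higher after coculture in each line, by 1.94 in MM.1S, 0.80 in MM.1R and 1.55 in INA-6.

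DERL2 fell in INA-6 by 1.62 (adjusted p = 0.000113) and rose in MM.1R by 0.66 ± 0.16 (adjusted p = 0.0275), with 0.40 ± 0.16 in MM.1S not passing; its other probe set was at -0.17 in MM.1R and -0.72 in INA-6. DERL1 read 546 and 502 in MM.1S alone and 1301 and 1254 after coculture, 918 and 903 and then 1156 and 1178 in MM.1R, and 2519 and 3177 and then 2466 and 2402 in INA-6. INA-6 was the highest line in both conditions. DERL1 rose in MM.1S by 1.28 ± 0.16 (adjusted p = 0.000589), and neither 0.36 ± 0.16 in MM.1R nor -0.22 ± 0.16 in INA-6 passed. Its further probe sets ran from -0.53 to 3.33 in MM.1S. EDEM2, which starts the trimming of mannose, passed in none of the lines and read between 94.6 and 155 on all 12 arrays.

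Of the 6 translocation and export genes, 2 were higher in MM.1S and 1 in MM.1R (33.3% and 16.7%, near the 23.9% and 13.3% of all genes), and in INA-6 1 was higher (16.7% against 39.1% of all) and 2 were lower (33.3% against 13.1%). SEC61B, the beta subunit of the translocation channel, read 865 and 813 in MM.1S alone and 2920.1 and 2946 after coculture, 1677 and 1845 and then 2911 and 3022 in MM.1R, and 3357 and 3285 and then 3141 and 3173 in INA-6. After coculture the 3 lines stood at nearly the same level. It changed by 1.80 ± 0.14 in MM.1S (adjusted p = 6.41e-05) and 0.75 ± 0.14 in MM.1R (adjusted p = 0.00811), and by -0.07 ± 0.14 in INA-6, which did not pass. Its other probe set was at 0.03 in MM.1S, -0.80 in MM.1R and 1.55 in INA-6, where the coculture arrays lay above the alone arrays.

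SEC24D, a cargo-binding subunit of the COPII coat, showed the largest change of the 32 genes. It read 13.9 and 5.98 in INA-6 alone and 193 and 174 after coculture, 112 and 118 and then 71.0 and 103 in MM.1S, and 71.7 and 139 and then 82.6 and 133.1 in MM.1R. INA-6 alone was below the array median, and INA-6 coculture was the highest group. The change in INA-6 was 3.71 ± 0.39 (adjusted p = 0.000148), between 2.96 and 4.18 over the alternatives, since it depends on the value added before the logarithm. Its other probe set gave a change of 3.21 there. The MM.1S and MM.1R changes of -0.41 ± 0.39 and 0.06 ± 0.39 did not pass, and the MM.1R groups overlapped.

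SEC61A1, the pore of the channel, and SSR1, a subunit of the translocon-associated complex, fell in INA-6 by 0.70 and 0.42 (adjusted p = 0.00488 and 0.0312) and passed in neither MM.1 line, with SSR1 probe sets of both signs in INA-6. SPCS3, a subunit of the signal peptidase, rose in MM.1S by 0.42 ± 0.14 (adjusted p = 0.0467), which turned to -0.14 under quantile normalization and was -0.24 and -0.16 for its other probe sets. The SPCS3 probe set used stood at -0.13 ± 0.14 in MM.1R and 0.00 ± 0.14 in INA-6. Its other probe sets were at -0.25 and 0.02 in MM.1R. In INA-6 both were at -1.06, with the coculture arrays below the alone arrays. SEC23B, a COPII coat subunit, passed in none of the lines. Its INA-6 alone duplicates read 911 and 414, and the other 10 arrays lay between 944 and 1059. The other tested SEC23B probe sets did not give 1 direction. They changed by 2.46 and -0.48 in MM.1S, by 1.62 and -0.43 in MM.1R, and by -0.38 and 1.05 in INA-6.

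**Figure D3:**
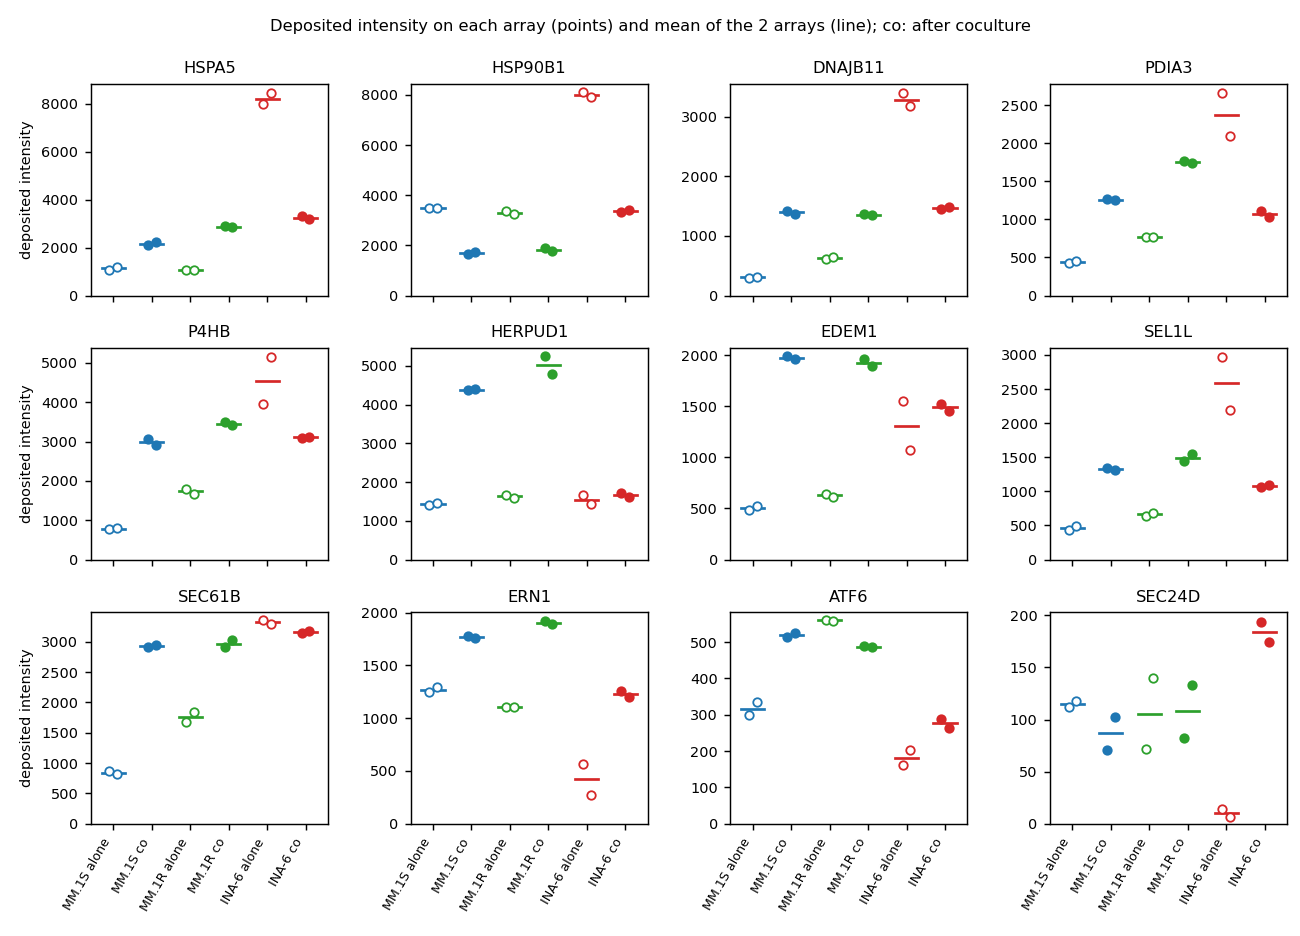
Deposited intensity (vertical axes, linear from 0) of 12 of the ER genes on each of the 12 arrays, with the mean of the 2 arrays of a group as a line; open points are cells alone and filled points cells after coculture. HSPA5 stands at 7984 and 8454 in INA-6 alone and at 3315 and 3181 after coculture, HSP90B1 is lower after coculture in each line, and HERPUD1 is high in the MM.1 cocultures.

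The next comparison asked whether INA-6 responded otherwise than the MM.1 lines, by the change in INA-6 minus the average change of the MM.1 lines. The response of 20 of the 32 genes was lower in INA-6 and that of 3 was higher, where 14.3% of all genes had a lower and 24.9% a higher response. The median difference of the 32 was -1.38, against 0.18 over all genes. By role, the lower responses were 8 of 11 chaperones, 4 of 4 isomerases, 5 of 7 degradation genes, 3 of 6 translocation and export genes, and 0 of 4 sensors. The lowest values were -2.80 ± 0.17 for DNAJB11 (adjusted p = 5.07e-05), -2.58 ± 0.22 for SEL1L (adjusted p = 0.000144) and -2.52 ± 0.17 for HSPA5 (adjusted p = 6.62e-05).

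The 3 genes with a higher response in INA-6 were SEC24D at 3.88 ± 0.48 (adjusted p = 0.000616), DERL3 at 2.41 ± 0.21 (adjusted p = 0.000166) and CREB3L2 at 0.73 ± 0.21 (adjusted p = 0.0259). A further DERL3 probe set changed by 1.55 in INA-6, between 1.94 in MM.1S and 0.80 in MM.1R. The remaining DERL3 probe set was at -1.37 in INA-6, below -0.95 in MM.1S and -0.29 in MM.1R. HSP90B1, which fell in all 3 lines, had a difference of -0.30 ± 0.17 that did not pass (adjusted p = 0.187). ERN1 missed the threshold at 1.01 ± 0.36 (adjusted p = 0.0578), so that for ERN1, EIF2AK3 and ATF6 a call in INA-6 does not show a response different from the MM.1 lines. HERPUD1 and EDEM1, which passed in the MM.1 lines and not in INA-6, did differ in response, at -1.51 ± 0.18 and -1.58 ± 0.23. Without INA-6 alone replicate 1 there were 6 higher responses, and without its replicate 2 there were 5. The ACTB ratio moved in opposite directions in INA-6 and the MM.1 lines, and its part in these differences was not tested.

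The related lines MM.1R and MM.1S were compared by the same measure. The response was lower in MM.1R for 2 of the 32 genes and higher for 0, where 1.89% of all genes were lower and 0.565% higher. The 2 were DNAJB11 at -1.08 ± 0.19 (adjusted p = 0.0380) and SEC61B at -1.05 ± 0.20 (adjusted p = 0.0407), both of which rose in each line. PDIA4, at -0.99 ± 0.21, just missed the threshold (adjusted p = 0.0542). At an unadjusted p under 0.05, 11 of the 32 and 2456 of all genes passed in this limma fit. The count of lower responses went to 0 without any one array of MM.1S, of MM.1R or of the INA-6 coculture, and to 11 without either INA-6 alone array.

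The level of the machinery before coculture differed between the lines. In cells kept alone, 22 of the 32 genes were higher in INA-6 than in the MM.1 lines on average and 4 were lower, where 21.4% of all genes were higher and 34.1% lower. The median difference of the 32 was 1.18 on the log2 scale, against -0.14 over all genes. All 11 chaperones, all 4 isomerases, 4 of 7 degradation genes and 3 of 6 translocation and export genes were higher in INA-6. SEC61B is among the last of these, but its other probe set stood at -1.29. The largest difference was that of HSPA5, at 2.90 ± 0.12 or 7.45-fold (adjusted p = 1.04e-06), followed by DNAJB11 at 2.89 ± 0.12 (adjusted p = 9.72e-07), MANF at 2.50 ± 0.19 and SDF2L1 at 2.37 ± 0.18.

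Genes lower in INA-6 alone were ERN1 at -1.58 ± 0.26 (adjusted p = 0.00106), ATF6 at -1.20 ± 0.14 (adjusted p = 0.000181), DERL3 at -1.14 ± 0.15 and SEC24D at -2.96 ± 0.34. For DERL3 the mean over its probe sets gave 0.10 instead. EIF2AK3, CREB3L2, HERPUD1, EDEM2, SPCS3 and SEC23B did not pass. The other tested probe sets of SPCS3 stood at 1.48 and 1.45, those of CREB3L2 at 2.50 and 0.89, and those of SEC23B at -1.32 and 1.58. By the probe sets used, the sensors ERN1 and ATF6 were thus low in INA-6 where the chaperones and isomerases were high. The other ERN1 probe sets differed in sign, at 1.61 and -2.75, and those of ATF6 ran from -3.73 to -2.59. The ACTB ratio of the alone arrays was 5.51 in INA-6 against 22.4 and 31.4 in the MM.1 lines.

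With alone and coculture weighted equally, so that each side of the comparison holds arrays of high and low ACTB ratio, 22 genes were higher in INA-6 and 4 lower, where 18.7% of all genes were higher and 30.7% lower. The median difference was 0.71 against -0.06 over all genes. HSPA5 stood at 1.64 ± 0.09 (adjusted p = 2.68e-06), DERL1 at 1.51 ± 0.10 (adjusted p = 7.68e-06) and DNAJB11 at 1.49 ± 0.08 (adjusted p = 3.76e-06). CALR stood at 0.30 ± 0.09 and CANX at 0.37 ± 0.08, against 1.002 and 1.09 in cells alone. Lower in INA-6 were ERN1, ATF6, HERPUD1 and SEC24D, at -1.08 ± 0.18, -1.03 ± 0.10, -0.74 ± 0.09 and -1.02 ± 0.24. In each of these 2 level comparisons, 21 of the 26 calls were made again with the same sign under every alternative that measured the gene. HSP90B1, HYOU1, SDF2L1, SEC61A1 and SEL1L are among these and had no value with probe sets lacking the _s_at, _x_at or _a_at suffix.

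**Figure D4:**
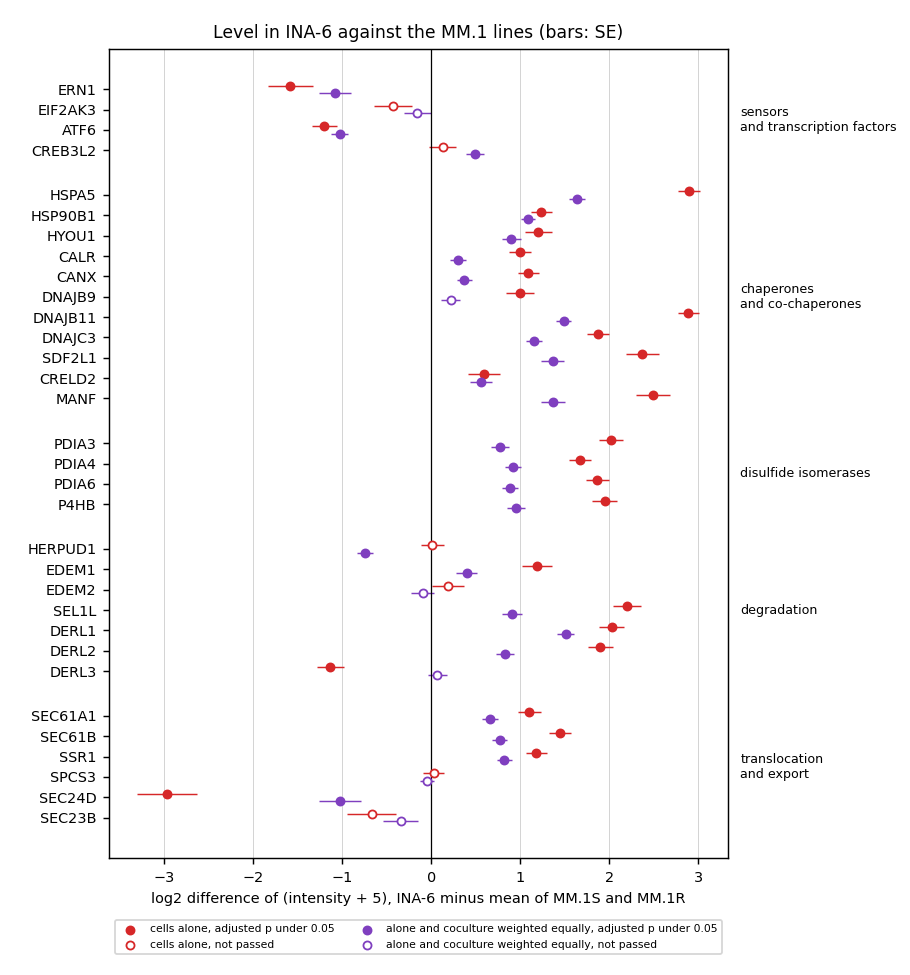
Difference in level between INA-6 and the average of the MM.1 lines for each ER gene (rows, by role) on the log2 scale of intensity + 5, with SE bars; red is cells alone, purple is alone and coculture weighted equally, and filled points have a limma adjusted p under 0.05. Chaperones and isomerases lie right of 0 (HSPA5 at 2.90 alone and 1.64 over both conditions), and ERN1, ATF6 and SEC24D lie left of 0.

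The probe sets of a gene did not always move together. Beside the probe set used, 23 of the genes had 48 further tested probe sets. These had the opposite sign to the one used for 20 of the 48 in MM.1S (41.7%, against 40.3% over all genes), for 17 in MM.1R (35.4% against 39.9%) and for 13 in INA-6 (27.1% against 37.5%). For the level in cells alone it was 7 of 48 (14.6% against 38.1%). The genes with a single tested probe set, among them EIF2AK3, DNAJB11, SDF2L1, MANF, HERPUD1 and EDEM1, have no such check.

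**Figure D5:**
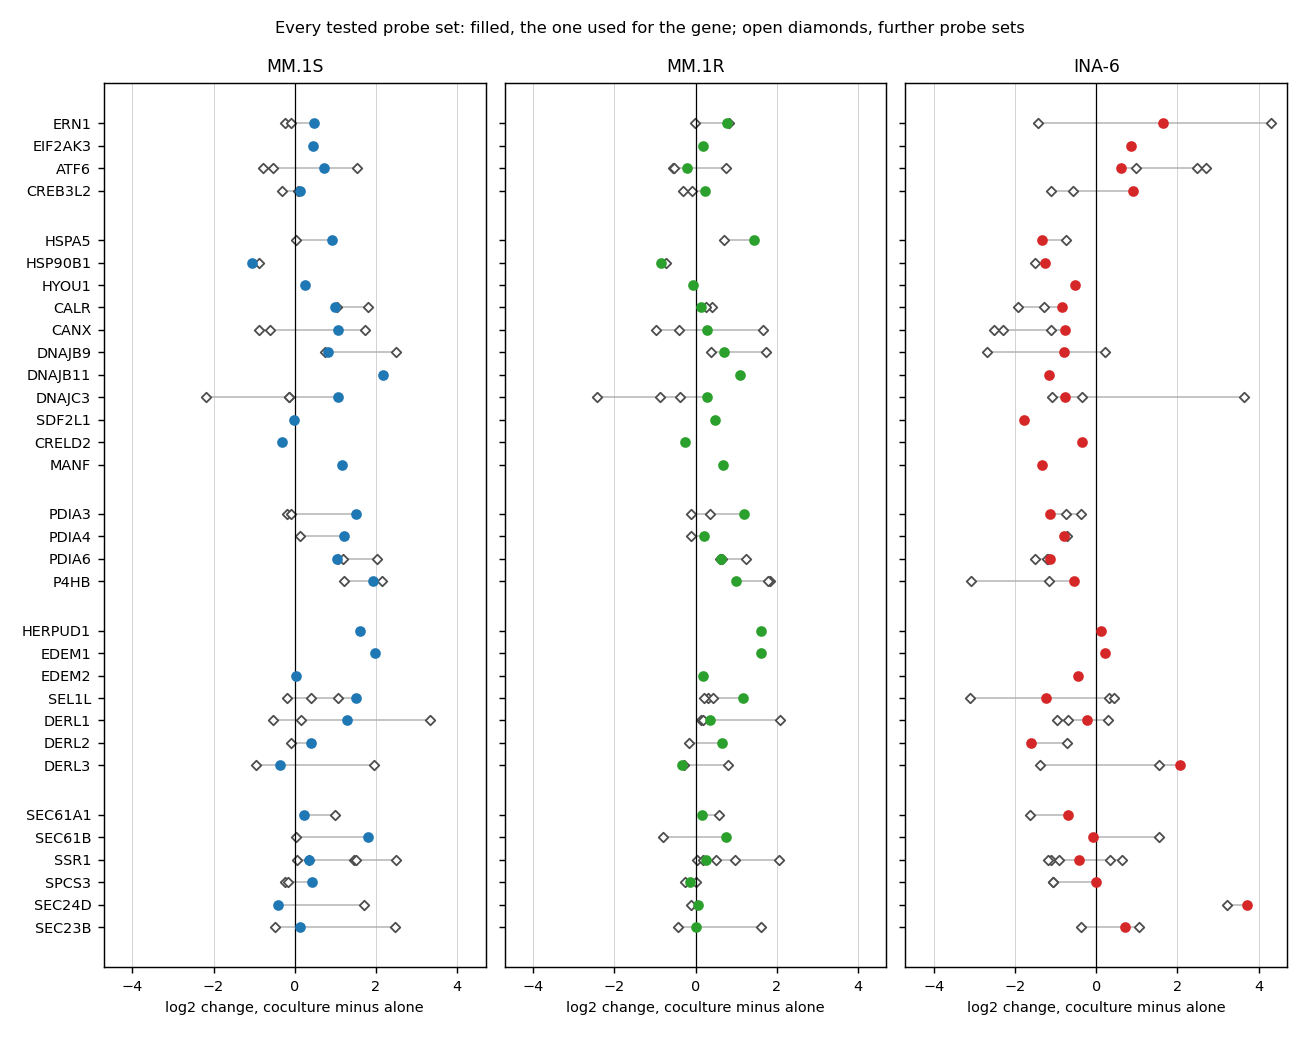
Log2 change after coculture (horizontal axes) of every tested probe set of each ER gene (rows) in MM.1S, MM.1R and INA-6; filled points are the probe set used for the gene, open diamonds the further ones, and grey lines join those of a gene. Both HSP90B1 probe sets lie left of 0 in each line, while ERN1 in INA-6 spans -1.44 to 4.32.

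Of the genes whose window holds an ERSE, HSPA5, CALR, CANX and PDIA6 were higher in MM.1S (23.9% of all genes were). HSP90B1 was lower there (8.33% of all genes were) and CRELD2 did not pass. In MM.1R 2 of the 6 were higher (13.3% of all genes were) and 1 lower (2.76%), and in INA-6 5 were lower (13.1%) and none higher (39.1%). In cells kept alone all 6 were higher in INA-6 than in the MM.1 lines, where 21.4% of all genes were. Of the 3 with an ERSE-II, HERPUD1 rose in both MM.1 lines while HYOU1 and SDF2L1 passed in neither, and HYOU1 and SDF2L1 fell in INA-6 while HERPUD1 did not pass.

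A wider list of 88 further genes of the secretory pathway and the unfolded protein response, 84 of them tested, was read beside the ER genes. In the common comparison 4 of the 84 were higher (4.76%, near the 3.28% of all genes) and 0 lower. The largest rise was that of ATF3, a transcription factor induced by stress, at 3.04 ± 0.38 (adjusted p = 0.00861). CHAC1, a glutathione-degrading target of the PERK branch, is counted among the 4. It entered the test only through its coculture arrays, so its call and rank are not read as a result. The other 2, named after their values were seen, were PPP1R15A, which reverses the block of translation set by PERK, at 2.54 ± 0.38 (adjusted p = 0.0181) and the COPII subunit SEC23A at 2.34 ± 0.38 (adjusted p = 0.0236).

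ATF3 read 104 and 108 in MM.1S alone and 773 and 701 after coculture, 175 and 132 and then 1528 and 1549 in MM.1R, and 24.4 and 38.8 and then 279.5 and 317 in INA-6. It was higher after coculture in each line without overlap, in contrast to the signs of HSPA5. CHAC1 read 2.85 and 9.11 in MM.1S alone and 42.8 and 57.6 after coculture, 12.4 and 4.85 and then 115 and 106 in MM.1R, and 11.5 and 15.8 and then 89.7 and 103 in INA-6. Its alone arrays were below the array median in every line and its coculture arrays were above it, so that it entered the test only through the coculture arrays, and no size of its change is given.

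Within the lines the wider list had 46 higher and 3 lower in MM.1S (54.8% and 3.57%, against 23.9% and 8.33% of all genes). It had 25 higher and 1 lower in MM.1R (29.8% and 1.19%, against 13.3% and 2.76%), and 21 higher and 34 lower in INA-6 (25% and 40.5%, against 39.1% and 13.1%). Its 14 translocation genes had 11 higher in MM.1S, 5 higher in MM.1R, and 2 higher and 11 lower in INA-6. Its 14 glycan-handling genes had 9 higher, 3 higher, and 0 higher and 7 lower. Its 18 folding and oxidation genes had 7 higher, 3 higher, and 3 higher and 9 lower. Other roles differed in INA-6. Of 13 degradation genes, 4 were higher and 4 lower there. Of 12 vesicle export genes, 7 were higher (58.3% against 39.1% of all genes) and 2 lower. Of the 13 stress-induced factors and targets, 10 were higher in MM.1S (76.9%) and 9 in MM.1R (69.2%). In INA-6, 5 were higher (38.5%, near the 39.1% of all genes) and 1 was lower. CHAC1, which entered the test only through its coculture arrays, is among those counted as higher in each line. XBP1, the factor spliced by IRE1, changed by 1.25 ± 0.13 in MM.1S (adjusted p = 0.000270), 0.77 ± 0.13 in MM.1R (adjusted p = 0.00627) and -0.39 ± 0.13 in INA-6 (adjusted p = 0.0379), the signs of HSPA5, and is also among the plasma cell markers; it was chosen for its link to IRE1 after its values were seen.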

How the data were processed

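Expression was measured in 12 arrays of 3 cell lines, alone or in coculture, with 2 arrays a group. The deposited values are probe set intensities on a linear scale. Per the submitters' processing notes the authors made them with MAS5, whereas the series text describes dChip modelling, so how the intensity was summarised and scaled is not settled; no version or genome build is stated in the sources. Of 54675 probe sets, 1 with a missing value was left out, and the platform annotation gave 1 symbol for 41091, several for 1801 and none for 11782. Only probe sets with 1 symbol were used.

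The log2 of intensity + 5 was used (5.04 being the 20th percentile of all values), so folds of low genes are understated. Probe sets that exceeded the array median on 2 or more of the 12 arrays were tested, which left 28050, and for each gene the brightest tested probe set by mean was used. limma 3.58.1 in R 4.3.3 gave moderated tests, two-sided, adjusted by Benjamini-Hochberg over 15052 genes with a threshold of 0.05. The common effect used duplicates averaged to 6 values with the line as a block (2 residual degrees of freedom, prior 5.47); changes within lines, differences of response and levels used all 12 arrays with a mean per group (6 residual degrees of freedom, prior 1.95). The fits were tested on simulated data. An array gives no counts, and the number of arrays limits the precision.

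All 33 genes are named. Values on every array are given for the called gene of each role with the largest change in a fit and for HSPA5, HSP90B1, ERN1, EIF2AK3 and ATF6; from the wider list the 2 largest called common rises are named, and further names are marked. The members, lists, tests and alternatives were chosen with earlier results of these data known. Promoter windows came from RefSeq (GRCh38.p14). A planned look at the last residues of the proteins was not run. Replicate numbers did not pair arrays: replicate 1 deviations of 2 groups correlated between -0.53 and 0.58, with 6 of 15 pairs over 0.1.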

Additional observations from a re-analysis of the deposited data

Results flagged for a closer look

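The genes given here had a response to coculture that differed between lines in a limma contrast of the changes themselves (log2, adjusted p under 0.05 over 15052 genes). INA-6 had a lower response than the MM.1 lines for the chaperones HSPA5 (-2.52), DNAJB11 (-2.80), MANF (-2.26), SDF2L1 (-2.02), DNAJB9 (-1.55), DNAJC3 (-1.45), CANX (-1.44) and CALR (-1.40). It was also lower for the isomerases PDIA3 (-2.50), P4HB (-1.999), PDIA6 (-1.97) and PDIA4 (-1.51). Among degradation genes the values were -2.58 for SEL1L, -2.14 for DERL2, -1.58 for EDEM1, -1.51 for HERPUD1 and -1.03 for DERL1, and among translocation genes -1.35 for SEC61B, -0.90 for SEC61A1 and -0.72 for SSR1. By the probe sets used, a higher response in INA-6 was found for SEC24D (3.88), DERL3 (2.41) and CREB3L2 (0.73). MM.1R had a lower response than MM.1S for DNAJB11 (-1.08) and SEC61B (-1.05). With 2 arrays a group, single arrays could not be examined as outliers.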

How the results depend on the processing

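Counts of ER genes per comparison kept within 1.5 times their value under most alternatives. The common comparison gave 4 higher and 1 lower with a replicate block on all 12 arrays (3688 and 947 of all genes). It gave 4 and 1 with the arrays unaveraged (4005 and 1079 of all genes), and 9 and 1 without INA-6 (2818 and 842). It gave 0 with any single array left out. MM.1S had 3 lower under quantile normalization and 0 with probe sets lacking the _s_at, _x_at or _a_at suffix, and MM.1R then had 7 higher. HSP90B1, the 1 gene called lower in MM.1S, has no such unsuffixed probe set and could not be called there. HERPUD1, SEL1L, SDF2L1 and SEC61A1 had no value there either, so counts with unsuffixed probe sets cover fewer genes. The INA-6 against MM.1 response had 5 higher under quantile normalization and 12 lower with unsuffixed probe sets. The MM.1R against MM.1S response had 1 higher under quantile normalization and with a trended prior; its lower count was 4 with 16 added, 0 without a filter, 6 with a filter of 6 of 12 arrays, 4 under quantile normalization, 0 with centred arrays, 1 with the mean of probe sets, 0 with unsuffixed probe sets, 10 with a trended prior and 0 with the replicate block. The level in cells alone had 7 lower under quantile normalization. The block moved no other count by over 1.5 times. Apart from the genes without an unsuffixed probe set, the cause of these shifts was not tested. Leaving out 1 array in turn gave 15 to 22 higher and 1 to 2 lower in MM.1S, 7 to 16 and 1 to 2 in MM.1R, 4 to 8 and 14 to 19 in INA-6, 2 to 6 and 19 to 21 for the INA-6 response, 0 to 1 and 0 to 11 for the MM.1R response, 21 to 23 and 4 to 6 for the level alone, and 20 to 23 and 4 to 6 over both conditions. Single genes turned sign. In MM.1S these were CANX (-0.61, unsuffixed), DNAJC3 (-0.35, mean of probe sets) and SPCS3 (-0.14, quantile; -0.24, unsuffixed); in MM.1R SEC61B (-0.027, mean). In INA-6 they were ATF6 (-0.21, quantile), CREB3L2 (-0.26, mean; -0.58, unsuffixed), DNAJB9 (0.23, unsuffixed), DNAJC3 (0.36, mean) and SSR1 (0.34, unsuffixed). In the INA-6 response they were CREB3L2 (-0.22, mean; -0.37, unsuffixed), DNAJC3 (0.95, mean) and SEC61B (0.29, mean), and in the level alone DERL3 (0.10, mean).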
